A study of Mus musculus with 2 samples.

Results

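Imprinted genes are described here in mouse ear at E18.5, shortly before birth, for a list of 33 well-known imprinted genes of the mouse. Most lie in imprinted clusters and some stand alone. The list was chosen with earlier results of these data known. A gene was counted as measured where the array's annotation paired a probe set with that gene and no other, and the probe set of highest mean linear signal was used; 28 of the 33 qualified, out of 19938 named genes on the array. RNA came from the fetal ear on 1 array of a BALB/c wild type and 1 array of a BALB/c double mutant null for both Myf5 and Myod1, the genes that commit cells to skeletal muscle. The mutant ear is also called the double knockout below. The labels do not say whether an array held RNA of 1 fetus or of a pool, nor which part of the ear was taken, and with 1 array per genotype no difference has a replicate check or a p-value.

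An imprinted gene is transcribed from the copy inherited from the mother or from the father, while the other copy is kept silent by DNA methylation laid down in the egg or sperm. Most such genes lie in clusters under a shared control region, often with a long noncoding RNA that silences its neighbours. Many act on fetal growth, with paternally expressed members that tend to promote it and maternally expressed members that tend to restrain it. Several are abundant in fetal mesoderm, muscle included, and are turned down after birth.

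Signals are log2 values per probe set, as deposited. Signals under each array's median over all probe sets (the floor, 5.65 in wild-type ear and 5.70 in mutant ear) were raised to it, and every difference below is the double knockout's log2 value less that of the wild type. A gene with a signal over the floor on 1 array alone has a bound in place of a fold, marked by "at least". Genes were counted as lower or higher at 2-fold or more. Of 10 inner ear genes, chosen after their values were seen, 9 had a probe set and 8 of these passed the floor on each array. Among all 19938 named genes, 11626 did so, and the inner ear genes are therefore no check of the tissue label. Oc90, the main protein of otoconia, read 11.28 and 11.26, and Otos was below the floor on both arrays. Of the targeted genes, Myf5 read 5.94 in wild-type ear and 5.25 in mutant ear, and Myod1 read 6.95 and 6.38; whether these probe sets lie in the deleted parts is not stated in the labels.

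Most imprinted genes were within 2-fold between the genotypes, and those past it were all lower in the double knockout. Of the 28 measured genes, 25 passed the floor on at least 1 array, and 5 of these were lower by 2-fold or more: Zdbf2, Rtl1, Peg10, Slc38a4 and Asb4. None was 2-fold or more higher in this comparison, and the other 20 were within 2-fold. Among all 12458 genes that passed in the same way, 1.71% were lower by that much and 0.482% higher. In all, 20 of the 25 lay below 0, against 50.8% of all genes, and their median difference was -0.25, against -0.01 for all genes. With earlier results known when the list was chosen, these shares describe the list and test nothing.

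Because a gene that passes the floor only on the array where it is high must differ, the same was counted over genes that passed it on both. There, 4 of 23 imprinted genes were lower by 2-fold or more, against a background of 0.989%, and 0 were higher, against 0.361%. At 1.5-fold, 5 were lower, against 2.67%, and 0 higher, against 2.06%. Below 0 lay 19 of the 23, against 51.2%. Without any floor, 21 of the 28 measured genes lay below 0, against 42.4% of all named genes, and 5 were lower by 2-fold or more, against 1.4%, with 0 higher, against 0.461%. For scale, differences over the 11626 genes that passed on both arrays had an SD of 0.344, and 5% of them lay at or below -0.44. Between probe sets of 1 gene the SD was 0.168 (619 genes), a measure of probe noise that leaves out variation between animals. Each measured imprinted gene had 1 probe set of its own.

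**Figure D1:**
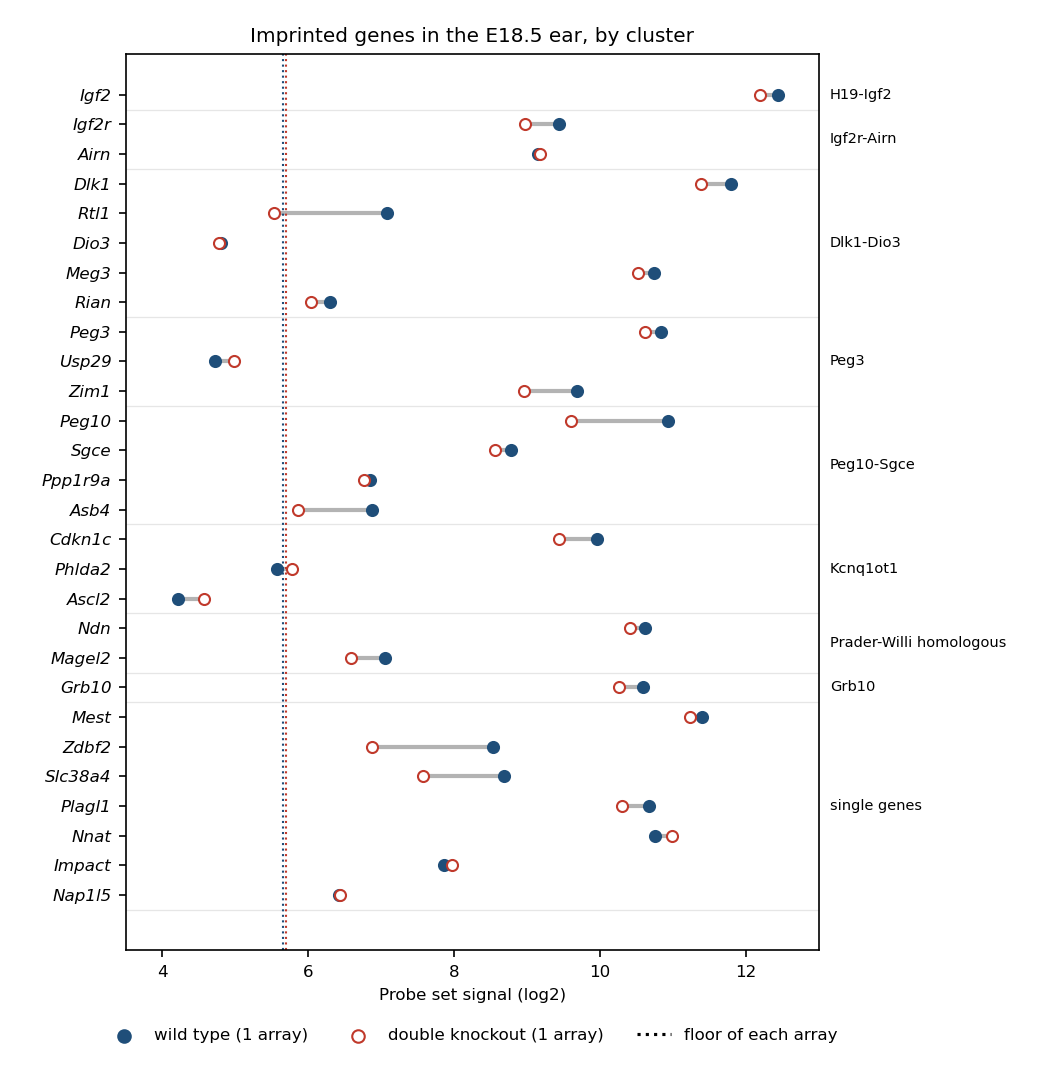
Probe set signal (log2) of the 28 measured imprinted genes in the wild type (filled) and the double knockout (open), grouped by cluster, with 1 array per genotype and dotted lines at the floors of 5.65 and 5.70. The open circle lies left of the filled one for 21 of the 28 genes, with the longest gaps at Zdbf2, Rtl1, Peg10, Slc38a4 and Asb4; signals of different probe sets are not comparable with each other.

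The 5 lower genes came from 4 chromosomes. Zdbf2, a paternally expressed zinc finger gene, read 8.53 in wild-type ear and 6.87 in mutant ear, 3.14-fold lower. Among the 11626 genes that passed on both arrays its difference of -1.65 was the 41st lowest. Peg10, also paternally expressed, derives from a retrotransposon and is required for the placenta to form. Peg10 read 10.93 and 9.60, 2.51-fold lower and 67th lowest. Slc38a4, a paternally expressed amino acid transporter, read 8.68 and 7.57, 2.16-fold lower and 93rd lowest.

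Rtl1, another paternally expressed gene of retrotransposon origin, is needed in placental vessels and is also made in fetal muscle. Its signal was 7.08 in wild-type ear and 5.53 in mutant ear, the latter under the floor, which makes it at least 2.59-fold lower. A maternally expressed antisense transcript covers the same stretch, and which strand the probe set reads is not stated in the labels or annotation, so both transcripts may enter the value. Asb4, a maternally expressed adaptor of a ubiquitin ligase, read 6.87 and 5.85, 2.03-fold lower. It sits at the threshold: with the medians of expressed probe sets made equal its difference was -0.999, just within 2-fold. Zim1, a maternally expressed zinc finger gene, followed at 9.68 and 8.96, 1.65-fold lower, and was the only further gene past 1.5-fold. At 1.5-fold, 6 of 25 were lower, against 3.62% of all genes, and 0 were higher, against 2.25%.

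A RefSeq promoter was listed for 3 of the 5 genes, and these are shown for the motif that the missing proteins recognise. The products of Myf5 and Myod1 bind the E-box, whose letters are CANNTG, a motif that reads as the same pattern on both strands. Each sequence runs 5′ to 3′ on the gene's strand in GRCm38.p6, for the most upstream start listed, with each CANNTG in capitals.
Zdbf2 promoter, chr1:63200108-63200407, plus strand: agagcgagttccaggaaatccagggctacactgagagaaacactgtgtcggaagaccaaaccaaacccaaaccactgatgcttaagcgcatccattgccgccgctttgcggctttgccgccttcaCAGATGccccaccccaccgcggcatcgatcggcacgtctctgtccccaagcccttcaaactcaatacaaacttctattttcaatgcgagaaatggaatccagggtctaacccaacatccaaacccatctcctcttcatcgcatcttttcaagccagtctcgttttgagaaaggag
Slc38a4 promoter, chr15:97055907-97056206, minus strand: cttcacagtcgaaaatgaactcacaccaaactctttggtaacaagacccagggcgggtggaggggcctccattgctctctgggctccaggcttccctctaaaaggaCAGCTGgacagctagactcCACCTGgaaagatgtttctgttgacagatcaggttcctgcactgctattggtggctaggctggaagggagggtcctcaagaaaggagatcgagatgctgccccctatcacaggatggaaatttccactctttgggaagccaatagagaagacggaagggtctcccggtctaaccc
Asb4 promoter, chr6:5383136-5383435, plus strand: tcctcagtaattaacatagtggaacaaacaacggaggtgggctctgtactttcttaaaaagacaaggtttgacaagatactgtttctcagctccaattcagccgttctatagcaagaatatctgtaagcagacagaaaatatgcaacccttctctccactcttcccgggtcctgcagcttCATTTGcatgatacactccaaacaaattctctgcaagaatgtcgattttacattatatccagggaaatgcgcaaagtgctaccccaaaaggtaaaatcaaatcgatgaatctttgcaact

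Zdbf2 and Asb4 each held 1 CANNTG in this window of 300 bases and Slc38a4 held 2, of which 1 was CAGCTG, a variant that the muscle factors favour. The count depends on the start chosen. The further start listed for Zdbf2 held 0 CANNTG and that for Asb4 held 2. Each further start of Slc38a4 held 2 CANNTG and 0 CAGCTG. Of the 33 listed genes 27 had a promoter in the table. CANNTG was found in 19 of them, or 70.4%, and in 72.1% of the 27025 promoters of all genes taken the same way. CAGCTG was found in 4 of the 27, or 14.8%, and in 16.1% of all. For either motif the share was slightly below that of all genes. The promoters of the listed genes held a median of 13 CG dinucleotides, against 7 over all genes, with a GC content of 57.3% and 52.7%. These windows are descriptions of the sequence and show no binding.

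By parental copy, both groups lay below 0. Of 18 paternally expressed genes measured, 16 passed the floor on at least 1 array; 4 of these were lower by 2-fold or more, 12 were below 0 and the median difference was -0.24. Over all genes, as given above, 1.71% were lower and 50.8% below 0. Of 9 maternally expressed genes measured, 8 passed the floor; 1 was lower by 2-fold or more, 7 were below 0 and the median was -0.36. Over genes that passed on both arrays the medians were -0.23 for 15 paternal and -0.46 for 7 maternal genes. Without a floor they were -0.22 over 18 and -0.25 over 9. No test of the difference between the copies is possible with 1 array per genotype. Grb10, whose expressed copy depends on the tissue, is in neither group.

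**Figure D2:**
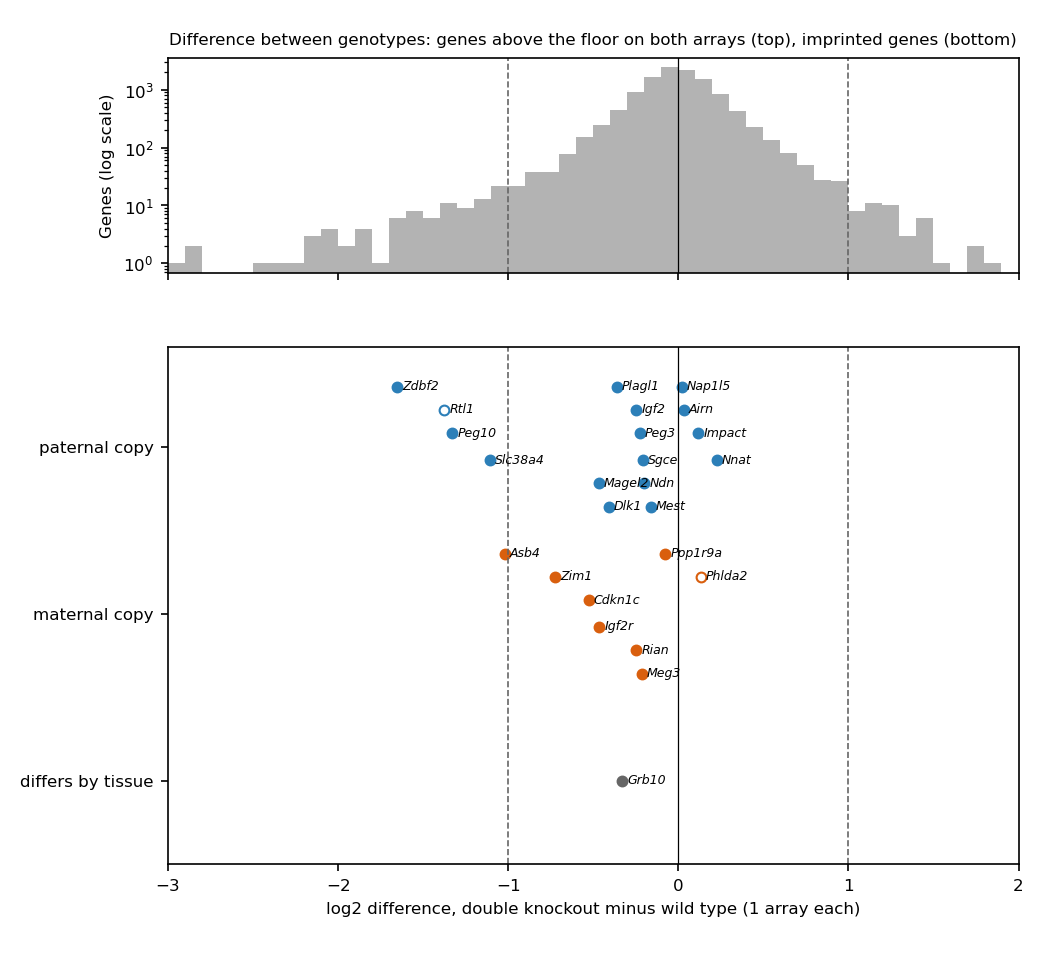
Top, number of genes (log scale) by log2 difference, double knockout minus wild type, for genes that passed the floor on both arrays, in steps of 0.1; 20 genes below -3 are outside the axis. Bottom, the 25 imprinted genes that passed on at least 1 array, by expressed parental copy, with open circles for bounds and dashed lines at 2-fold; 4 paternally expressed genes and 1 maternally expressed gene lie left of the lower line and none lies right of the upper one.

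Clusters were made up of the 33 listed genes alone. The Peg10-Sgce cluster on chromosome 6 showed the lowest median of those with at least 3 genes above the floor, -0.61 over 4 genes. The Dlk1-Dio3 cluster was the only other one that qualified. Casd1, Pon2 and Pon3, imprinted genes of the Peg10 region outside the 33, differed by -0.33, -0.11 and 0.01 and did not enter the median. Of the genes named above, Peg10 and Asb4 are the members of the Peg10-Sgce cluster past 2-fold, the former from the paternal and the latter from the maternal copy. Sgce, the paternally expressed epsilon-sarcoglycan, shares a promoter region with Peg10 and is transcribed away from it. It read 8.77 in wild-type ear and 8.56 in mutant ear, 1.16-fold lower, against 2.51-fold for Peg10. Ppp1r9a, which encodes the actin-binding protein neurabin, read 6.85 and 6.77. Each parental copy thus had 1 gene past 2-fold and 1 well within it.

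In the Dlk1-Dio3 cluster on chromosome 12, the paternal copy makes Dlk1, Rtl1 and Dio3, and the maternal copy makes the noncoding RNAs Meg3, Rian and Mirg together with a long row of microRNAs. Dlk1, a membrane protein that restrains fat cell differentiation and is made by fetal muscle, read 11.79 in wild-type ear and 11.38 in mutant ear, 1.33-fold lower. Meg3 read 10.73 and 10.52, 1.16-fold lower, and Rian, a host of small nucleolar RNAs, read 6.29 and 6.04, 1.19-fold lower. Dio3, the enzyme that inactivates thyroid hormone, was below the floor on both arrays, at 4.81 and 4.78. The 4 genes above the floor all lay below 0, with a median of -0.33. Rtl1 passed on the wild-type array alone; over the other 3, which passed on both, the median was -0.25, and with a pseudocount in place of the floor it was -0.21 for the 5 measured. Mirg has no probe set of its own. Probe set 10398442, paired with both Mirg and the microRNA gene Mir410 inside it, read 8.41 and 6.33, 4.22-fold lower, and stands outside the counts.

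That value led to a look at the microRNA genes of the cluster, a set chosen after the values had been seen. RefSeq lists 61 microRNA genes between Dlk1 and Dio3, and 40 had a probe set of their own. The measured ones fall into a row before Mir379, with 10 measured genes, and the row from Mir379 to Mir410, with 30. In the row from Mir379 to Mir410, 27 of 30 were lower in the double knockout without a floor, with a median of -0.62 and a range from -1.33 to 0.32, and 17 were at least 1.5-fold lower. In the row before it, 7 of 10 were lower, with a median of -0.11. Of the 257 microRNA genes measured elsewhere in the genome, 29.2% were below 0 and 1.56% at least 1.5-fold lower, and their median was 0.16. Most of these signals are dim, and 16 of the 30 lay below the floor on both arrays.

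Of the 14 genes of the Mir379 to Mir410 row that passed the floor, 5 were lower by 1.5-fold or more, 0 were higher by as much and 0 passed 2-fold. Elsewhere in the genome 4.76% of 42 microRNA genes that passed were lower by as much. Over the 10 genes that passed on both arrays the count was 4, against 5.56% of 36 elsewhere. Mir377 read 7.22 and 6.46, 1.70-fold lower, Mir485 read 6.78 and 6.12, 1.58-fold lower, and Mir329 read 6.65 and 6.01, 1.55-fold lower. Mir323 read 6.66 and 6.07, a difference of -0.59, and Mir382 read 6.53 and 5.56, at least 1.78-fold lower. Over the 30, the genes above 0 were Mir679, Mir666 and Mir667, at 0.11, 0.27 and 0.32. The genes of the row are cut from a shared transcript and are not independent of each other, and the probe sets do not separate the precursor from the mature microRNA.

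The mature microRNAs that the RefSeq table lists for those 5 genes, both arms for 4 of them and the 3p arm for Mir485, are shown with the seed, bases 2 to 8, in capitals, since the seed sets which messages a microRNA can pair with. They are from RefSeq, GRCm38.p6, chromosome 12, plus strand.
mmu-miR-323-5p: aGGUGGUCcguggcgcguucgc
mmu-miR-323-3p: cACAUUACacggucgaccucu
mmu-miR-329-5p: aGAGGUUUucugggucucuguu
mmu-miR-329-3p: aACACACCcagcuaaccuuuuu
mmu-miR-382-5p: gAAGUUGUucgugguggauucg
mmu-miR-382-3p: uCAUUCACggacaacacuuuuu
mmu-miR-485-3p: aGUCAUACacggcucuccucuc
mmu-miR-377-5p: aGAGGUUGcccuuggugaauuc
mmu-miR-377-3p: aUCACACAaaggcaacuuuugu

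No seed among the 9 was shared by another mature microRNA of the cluster in the table. As whole strings the 9 seeds are thus distinct, but those of miR-329-5p and miR-377-5p differ only in their last base. The array gives no level for any of these mature forms.

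**Figure D3:**
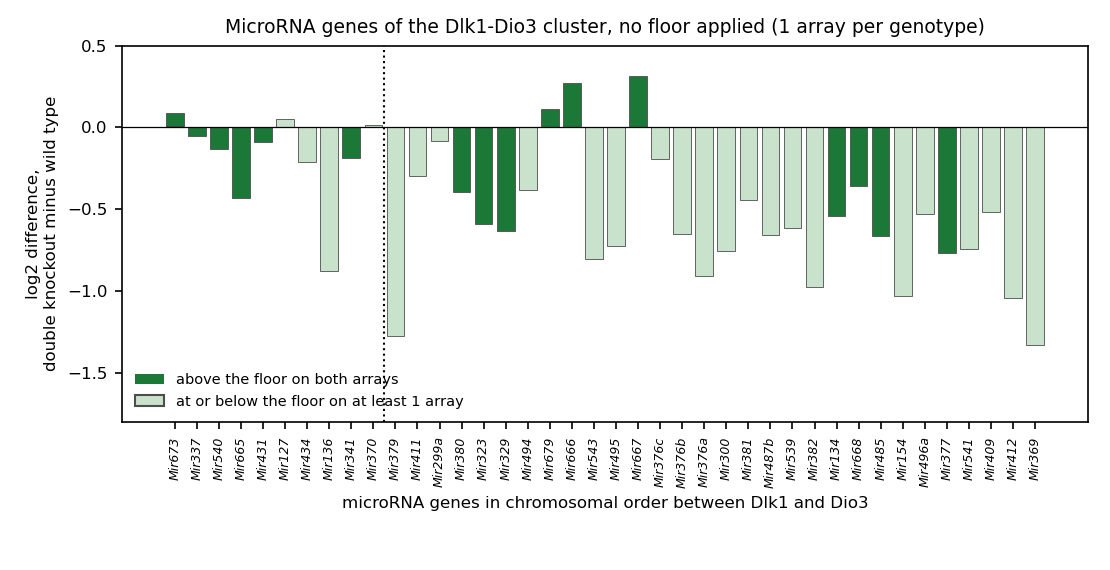
Log2 difference, double knockout minus wild type, of the 40 measured microRNA genes of the Dlk1-Dio3 cluster in chromosomal order, with no floor applied and 1 array per genotype; dark bars passed the floor on each array and the dotted line marks the start of the row from Mir379 to Mir410. Bars of that row point down for 27 of 30 genes, and upward bars there are Mir679, Mir666 and Mir667.

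The growth factor genes of the list differed less. Igf2, the paternally expressed fetal growth factor, read 12.44 in wild-type ear and 12.19 in mutant ear, 1.19-fold lower. Igf2r, the maternally expressed receptor that takes the growth factor to the lysosome, read 9.44 and 8.97, 1.38-fold lower. Airn, the paternal noncoding RNA that overlaps and silences Igf2r in cis, read 9.15 and 9.18. With the strand of the probe sets not given, signals of this overlapping pair may mix. Grb10, an adaptor that dampens insulin and growth factor receptor signalling, read 10.59 and 10.26, 1.26-fold lower. H19, the maternal noncoding RNA beside Igf2, had no probe set of its own, and neither had Kcnq1ot1; both are not analysed here.

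In the Kcnq1ot1 cluster, Cdkn1c, the maternally expressed inhibitor of cyclin-dependent kinases, read 9.96 and 9.43, 1.44-fold lower. Phlda2, which restrains placental growth, read 5.58 and 5.78, above the floor in the double knockout alone, and was at least 1.10-fold higher. Ascl2, a transcription factor of the trophoblast, was below the floor on both arrays, at 4.21 and 4.57.

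In the Peg3 cluster, Peg3, a paternally expressed zinc finger protein that marks many progenitor cells, read 10.84 in wild-type ear and 10.61 in mutant ear, 1.17-fold lower. Its neighbour Zim1 was 1.65-fold lower, as given above, and Usp29, a ubiquitin protease, was below the floor on both arrays, at 4.72 and 4.98. In the cluster that corresponds to the human Prader-Willi region, Ndn, the growth-suppressing protein necdin, read 10.62 and 10.42, 1.15-fold lower. Magel2, a related protein that works with ubiquitin ligases, read 7.06 and 6.59, 1.38-fold lower. Probe set 10564211, paired with both Snurf and Snrpn, read 8.43 and 8.59. Probe set 10479112, paired with both Gnas and Gnasas1, read 11.06 in the wild type and differed by -0.07. Both stand outside the counts.

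Of the 7 genes that lie alone in the list, Zdbf2 and Slc38a4 were past 2-fold. Plagl1, a zinc finger transcription factor that acts on other imprinted genes, read 10.67 in wild-type ear and 10.31 in mutant ear, 1.29-fold lower. Mest, a hydrolase-like protein abundant in fetal mesoderm, read 11.40 and 11.24, 1.12-fold lower. Nnat, Impact and Nap1l5 lay above 0. Nnat, a small membrane protein of the developing nervous system, read 10.76 and 10.98, 1.17-fold higher. Impact, an inhibitor of an eIF2 kinase, read 7.85 and 7.97, and Nap1l5, a nucleosome assembly protein, read 6.42 and 6.44; the sign of Nap1l5 turned, to -0.01, when the trend with signal was removed by loess. Airn and Phlda2 were the other genes above 0.

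Imprinted genes outside the main set had a median near 0. Of 34 listed genes beyond the main set, many of them imprinted only in the placenta or the brain, 27 were measured and 20 passed the floor. Their median was 0.01 and 7 were below 0, against 50.8% of all genes. Of the 20, 1 was lower by 2-fold or more, against 1.71%, and 0 were higher, against 0.482%. The exception was Ddc, which makes dopamine and serotonin and is imprinted in the heart. It read 6.95 and 5.55, at least 2.38-fold lower, and passed on the wild-type array alone. Over the 19 genes that passed on both arrays 0 were lower by 2-fold or more, against 0.989% of all genes. The abundant members Cd81, H13 and Gab1 differed by -0.08, 0.03 and 0.11. Whether the main set differs from this list beyond chance was not tested, and both were chosen with earlier results of these data known.

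Genes that keep or read the imprint were close to 0. Of 19 regulators, 16 were above the floor, with a median of 0.03, 4 below 0 and none past 2-fold. Of all genes, as given above, 50.8% were below 0, with 1.71% lower and 0.482% higher by 2-fold or more. The maintenance methylase Dnmt1 differed by 0.13, and Trim28, the corepressor that guards methylated imprints, by 0.06. Tet1, which oxidises methylated cytosine, differed by 0.24. Zfp57, the zinc finger protein that brings Trim28 to imprints, read 8.60 and 9.26, 1.58-fold higher, the largest difference of the list.

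Protein-coding genes beside each cluster or lone gene, 3 on each side and 92 in all, served as neighbours. They were the nearest with a probe set of their own, leaving out genes of either imprinted list. Some therefore lie beyond further imprinted genes, as Nap1l4 does for H19 and Igf2. Over the 69 that passed the floor, the median was -0.06 and 43 were below 0, against 50.8% of all genes. Of the 69, 2 were lower by 2-fold or more, against 1.71%, and 1 was higher, against 0.482%. The lower ones flank H19 and Igf2, and the Kcnq1ot1 cluster beyond: Tnnt3, the fast skeletal troponin T, read 11.69 and 5.90, and Th, the tyrosine hydroxylase that makes catecholamines, read 8.16 and 6.91. Igf2 between them was 1.19-fold lower. The higher neighbour was Gabra5, a receptor subunit beside the Prader-Willi region, at 6.72 and 7.93. Around Peg10 and Sgce none of 6 neighbours passed 2-fold, and Col1a2 differed by -0.10 and Pdk4 by -0.25. Around Zdbf2 the neighbours above the floor ranged from -0.18 to -0.01, and around Slc38a4 from -0.19 to 0.39.

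**Figure D4:**
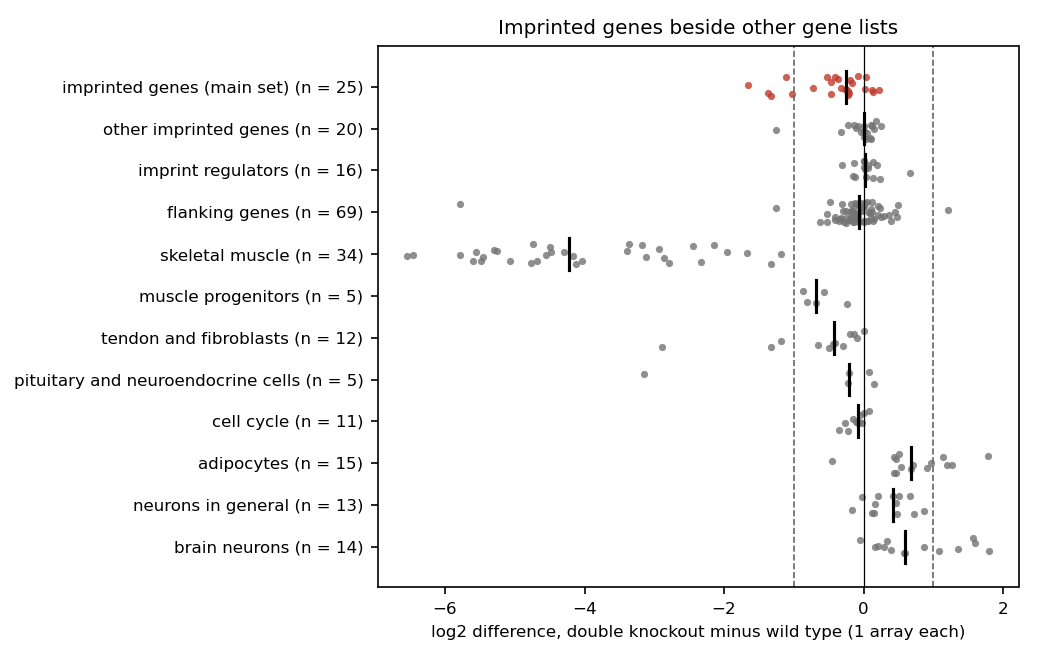
Log2 difference, double knockout minus wild type, of genes that passed the floor on at least 1 array in the main imprinted set and in other lists (points, 1 array per genotype), with the median of each list as a black bar and dashed lines at 2-fold; n is the number of genes. The main imprinted set has a median of -0.25, the other imprinted genes 0.01, the flanking genes -0.06 and skeletal muscle -4.23.

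Marker genes of several cell types differed between the arrays, and their part in the imprinted gene values was not tested. In RNA of whole tissue, fewer cells of a type and less RNA per cell cannot be told apart. All 34 skeletal muscle genes that passed the floor were lower by 2-fold or more, with a median of -4.23. Of these, 23 passed on the wild-type array alone, and the 11 that passed on both were all lower by 2-fold or more. The lowest was Actc1, the cardiac actin of fetal muscle, at 12.38 and 5.84. The summed linear signal of the 35 measured was 50920 in wild-type ear and 1520 in mutant ear; 24 of the 35 were at the floor there. The sum over the 28 imprinted genes was 29029 and 23236, and over all 19938 named genes it was 3.59e+06 and 3.50e+06. The brightest probe sets weigh most in such sums. Of 9 muscle progenitor genes 5 passed the floor, all below 0, with Itm2a at -0.81 and Cdh15 at -0.87. The 5 include the targeted genes Myf5 and Myod1, and 2 of the 5 passed on the wild-type array alone. The 3 that passed on both, Myod1 among them, were all below 0. Of 12 tendon and fibroblast genes 11 were below 0 and 3 were past 2-fold lower, and the median was -0.43. Over all genes that passed on at least 1 array, 1.71% were lower by 2-fold or more and 50.8% were below 0. Over all that passed on both, the shares were 0.989% and 51.2%.

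The adipocyte, neuron and salivary gland lists had medians above 0. For comparison, 0.482% of all genes that passed on at least 1 array were past 2-fold higher, and 0.361% of those that passed on both. Of 15 adipocyte genes, all of which passed on both arrays, 4 were past 2-fold higher, with a median of 0.68 and Retn, the hormone resistin, highest at 1.79. Of 14 brain neuron genes 5 were past 2-fold higher, but 4 of the 14 passed in the double knockout alone; over the 10 that passed on both, 3 were, with a median of 0.49. Of 13 general neuron genes 0 were, with a median of 0.42. Of 9 salivary gland genes 8 were past 2-fold higher, but 7 of the 9 passed in the double knockout alone, and of the 2 that passed on both 1 was. Bpifa2, a salivary secretory protein, read 4.09 and 12.47. Of the pituitary and neuroendocrine list, 5 of 8 measured genes passed the floor, with 3 below 0 and a median of -0.21. Among the 5, 1 was lower by 2-fold or more, against 1.71% of all genes. That gene was Gh, the growth hormone gene, which read 9.34 and 6.20, 8.85-fold lower. Over the 4 that passed on both arrays 2 were below 0 and 2 above it, and Chga differed by 0.08. Cell cycle genes had a median of -0.07, endothelial genes -0.01, cartilage genes -0.04 and housekeeping genes 0.06. Below 0 lay 9 of 11 cell cycle, 4 of 8 endothelial, 6 of 11 cartilage and 3 of 9 housekeeping genes, against 50.8% of all genes. Of 5 placenta and yolk sac genes measured, 4 did not pass the floor, and Ttr differed by -0.14.

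Y-linked genes differed between the arrays as well. The genes Eif2s3y, Uty and Kdm5d read 2.67, 2.35 and 3.20 in wild-type ear and 5.85, 5.83 and 5.02 in mutant ear, the last of these below the floor. Xist, made by the inactive X chromosome, read 10.68 and 10.28. The part of the fetuses' sex in the imprinted gene values was not tested.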

How the data were processed

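RNA of the fetal ear was measured on 2 arrays, 1 per genotype. The deposited table holds log2 signals for 35557 probe sets; the base was read from the range, 0.75 to 13.27. MAS5 is named in the submitters' processing notes, with no version. It was designed for arrays with mismatch probes, which this design lacks, so how the log2 values were made stays unsettled; nothing used here gives the background correction, the normalization between arrays or the build. The deposited log2 values were used on their own scale. Of the probe sets, 21789 were paired with 1 gene, 1621 with several and 12147 with none by GEO's platform table, whose symbols may be dated; 21698 of the first kind had an Entrez identifier in the RefSeq gene table (GRCm38.p6), used for names and neighbours.

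Low signals were raised to the 50th percentile of each array. With 1 array per genotype nothing could be tested, and precision is limited by that number. Lists are described by counts and medians beside those over all genes. The members and lists were chosen with earlier results of these data known. The rule for names was every member, Myf5 and Myod1, and from other lists the 3 genes of highest signal and the largest difference past 2-fold in each direction. It was followed in full for the imprinted genes and their regulators; cell type lists are given mostly by counts, with some of the genes the rule allows. Dnmt1, Kdm5d, Casd1, Pon2, Pon3, the neighbours, the inner ear genes and the microRNAs were chosen after their values were seen. Alternatives were 4 scalings, other floors, a pseudocount, the median over probe sets and other thresholds. The calculation, in Python 3.11.15 with pandas 2.3.3 and statsmodels 0.14.6, was tested on simulated data.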

Additional observations from a re-analysis of the deposited data

How the results depend on the processing

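The count of 5 imprinted genes at least 2-fold lower ranged from 4 to 5 under the 4 other scalings, with 0 higher under every alternative tried. Raising the floor to the 75th percentile left 3 of the 18 genes that still passed (Zdbf2, Peg10 and Slc38a4), where 1.74% of all genes were lower. Rtl1 and Asb4 no longer passed there on either array. The count was 2 of 28 with each array's median signal added in place of a floor (Zdbf2 and Peg10, against 0.797%). At 3-fold the count was 1 of 25 (Zdbf2, against 0.963%). The median of the Peg10-Sgce cluster was -0.39 with that added signal. Adding a constant compresses differences of dim genes by construction. The median of the imprinted genes stayed between -0.30 and -0.21, and of 241 member values under the alternatives 5 moved by more than the spread between probe sets. All 5 belong to genes counted as lower. With the added signal Zdbf2 moved to -1.31, Slc38a4 to -0.93, Rtl1 to -0.91 and Asb4 to -0.61. With the floor at the 75th percentile Zdbf2 moved to -1.18. Many of the 241 could not move. Each measured imprinted gene has 1 probe set, so the median over probe sets returns the main value. Other floors do the same for genes above them on both arrays. The count of 5 is therefore no measure of robustness. Counts over genes that passed on both arrays, and the microRNA rows, were added after seeing the data; the median of the Mir379 to Mir410 row was -0.62 without a floor and -0.16 with the added signal. No paired analysis was possible because each genotype has 1 array. Signals near the floor limit Rtl1, Phlda2 and most of the microRNA genes.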
